A study of Mus musculus with 6 samples.

Results

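Chemokines and chemokine receptors were read in RNA from cells labelled as liver sinusoidal endothelial cells (LSECs). The cells came from mice bearing bevacizumab-sensitive or bevacizumab-resistant liver metastases. The members were chosen by gene symbol alone, as the mouse ligands named Ccl, Cxcl, Cx3cl and Xcl and the receptors named Ccr, Cxcr, Cx3cr, Xcr and Ackr. They were 61 of the 60832 genes in the count table, 39 ligands and 22 receptors. The chemokines Pf4 and Ppbp and the chemerin-binding receptor Ccrl2 carry other symbols and were read with the pathway genes instead.

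Chemokines are small secreted proteins that guide the migration of leukocytes by binding receptors coupled to G proteins. CC chemokines act mainly on monocytes, macrophages, eosinophils and lymphocytes, whereas CXC chemokines with a glutamate-leucine-arginine (ELR) motif attract neutrophils and other CXCR2+ myeloid cells. Atypical receptors (Ackr genes) bind chemokines without G protein signaling and remove, carry or retain them. In the liver, Kupffer cells, stellate cells and sinusoidal endothelium are all known sources of chemokines that recruit monocytes and neutrophils.

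The series holds 3 libraries labelled as LSECs from sensitive and 3 from resistant HCT116 xenografts (HCT116 is a line of human colorectal cancer cells). Male BALB/c-Nu mice, which lack a thymus and mature T cells but keep their myeloid, B and NK cells, were received at 4 to 6 weeks of age and injected with HCT116 cells in the left main liver lobe. By the Methods of the study, vehicle mice received IgG, and bevacizumab, an antibody against human VEGF-A, was given at 10 mg/kg 2 times a week for 7 weeks, a treatment that its Results give as 42 days. The cells were taken with anti-CD146 beads and, per the labels, cultured for 24 h. The design text of the series instead speaks of LX-2, a human hepatic stellate cell line, and of conditioned medium, which the sample labels do not mention. Neither source says how many mice stand behind a library, so the p-values below measure the spread between these libraries.

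Total counts were between 17599326 and 20726684 per library, and 3 counts equal 0.145 to 0.170 CPM (the count scaled for library size), a floor for counting error alone. The defining markers went against a pure LSEC label: 16 macrophage and Kupffer cell markers summed to between 23760 and 42880 CPM, 11 LSEC markers to between 142.7 and 464.7 CPM and 10 pan-endothelial markers to between 50.2 and 439.2 CPM. Mcam, which encodes the CD146 antigen of the beads, was between 0.308 and 3.87 CPM. The study's Methods give a high purity of CD146+ cells by flow cytometry, which reads protein on cells rather than RNA. Markers of T and NK cells summed to 10.4 to 26.7 CPM and those of B cells to 0.410 to 2.64 CPM. Replicate 2 of the sensitive group stood apart, with correlations of 0.860 to 0.901 to the other libraries against 0.954 to 0.974 among the rest (across genes, log2 CPM). In these bulk libraries, fewer cells of a type and less RNA per cell cannot be told apart.

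Levels were first compared between members as FPKM, the deposited unit, which divides by library size and gene length. Ccl6, a mouse CC chemokine of macrophages and myeloid cells that binds CCR1, was the most abundant member on average, at 1676, 1158 and 1779 FPKM in the sensitive and at 3031, 1283 and 1788 FPKM in the resistant libraries. Each such list gives replicates 1, 2 and 3 in that order. Ccl6 ranked between 8 and 38 among all genes of a library. Ccl9, a second CCR1 ligand, followed at 372, 364 and 228 FPKM in the sensitive and at 554, 200 and 171 FPKM in the resistant libraries. Both were among the 3 highest members in 6 of 6 libraries, and the remaining place went to Ccl2 in 3 libraries and to Ccl24 in 3.

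**Figure D1:**
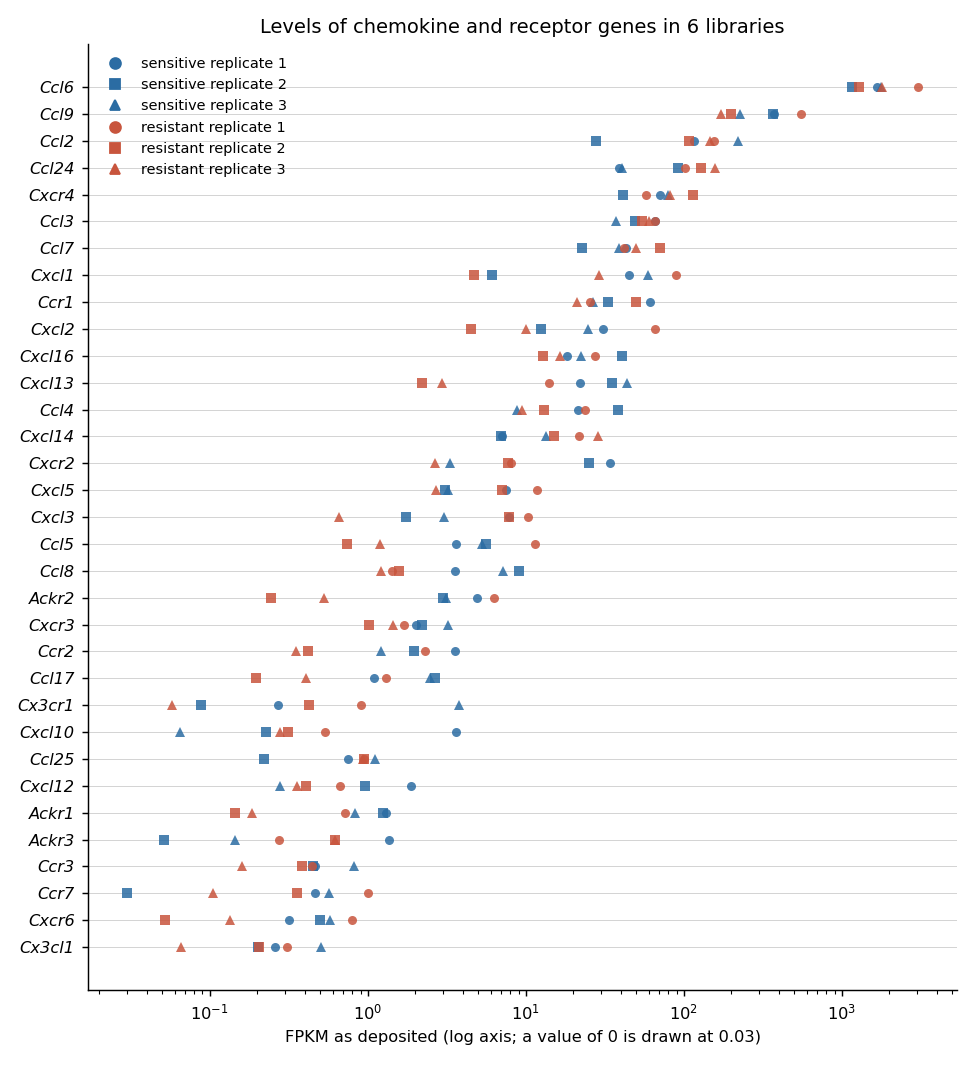
FPKM as deposited (log axis) of the members that passed the low count filter, with 1 symbol per library, blue for the sensitive and red for the resistant group; a value of 0 is drawn at 0.03. Ccl6 lies above every other member in each library, while the order below Ccl9 changes from library to library.

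Below Ccl9, mean levels over the 6 libraries were 129 FPKM for Ccl2, 93.1 for Ccl24, 74.0 for Cxcr4, 55.5 for Ccl3, 44.6 for Ccl7, 39.0 for Cxcl1, 36.2 for Ccr1, 24.7 for Cxcl2, 23.0 for Cxcl16, 20.01 for Cxcl13 and 19.1 for Ccl4. Ranges of neighbours in this order overlapped: Ccl2 was between 27.9 and 221 FPKM, Ccl24 between 38.9 and 158 FPKM and Cxcr4 between 41.5 and 114 FPKM. Cxcr4, the receptor of Cxcl12, was the most abundant receptor by mean level, followed by Ccr1, and its ligand Cxcl12 averaged 0.760 FPKM. At 1 FPKM or more in all 6 libraries there were 18 members, 14 ligands and 4 receptors, and 45 members had 10 or more counts over the 6 libraries.

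As a share of all counts, ligands made up 0.474%, 0.367% and 0.461% in the sensitive libraries and 0.807%, 0.345% and 0.440% in the resistant ones. The highest share was in replicate 1 and the lowest in replicate 2 of the resistant group, so that the sensitive values lie between them. Ccl6 alone held 63.4%, 56.7% and 69.3% of ligand counts in the sensitive and 67.5%, 66.8% and 73.0% in the resistant libraries.

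**Figure D2:**
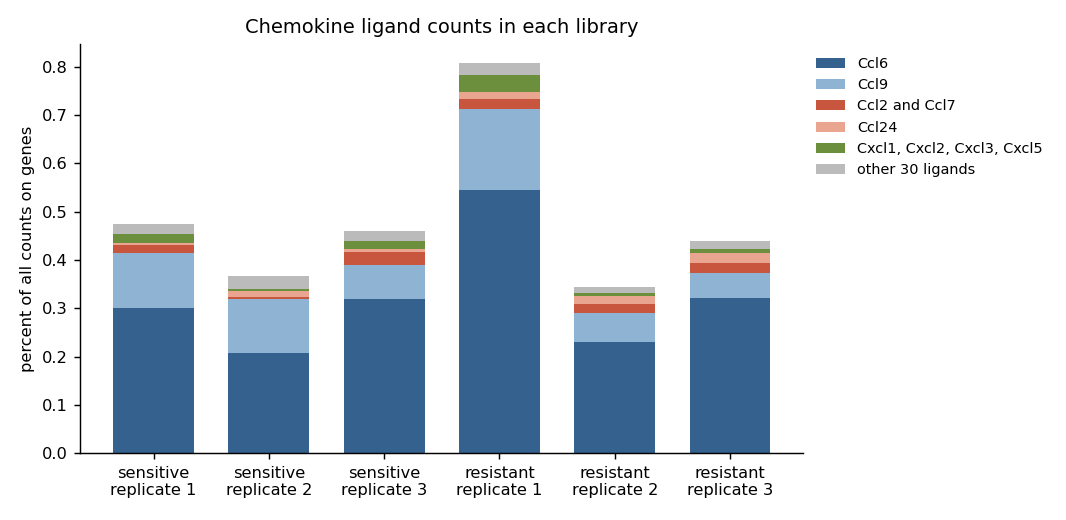
Share of all counts of each library (percent) taken by chemokine ligands, stacked by gene from 0. Ccl6 is the largest block in each bar, and replicate 1 of the resistant group has the tallest bar at 0.807%.

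To ask which members differed between the libraries from resistant and sensitive xenografts, the counts of all genes were tested together. The low count filter left 15474 genes, among them 34 members (21 ligands and 13 receptors), and 27 members were not tested. After Benjamini-Hochberg adjustment of the p-values of edgeR's quasi-likelihood test, 0 of the 34 passed 0.05 (background 0% of all genes tested; smallest member value 0.940). Before adjustment, 5 members passed 0.05 against a background of 3.08% of genes. Ccl8, Cxcl13 and Ackr1 had lower values in the resistant group (background 2.54% of genes), and Cxcl14 and Ccl24 had higher values (background 0.536%). Without any overlap between sensitive and resistant libraries were 6 members, against 9.02% of genes: Cxcl13, Ccl8, Cxcr3, Ackr1 and Ccr3 were lower in all resistant libraries (background 4.38%) and Cxcl14 was higher in all of them (background 4.64%). An exact permutation test of a single gene over 3 and 3 libraries cannot give a two-sided p below 0.1.

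**Figure D3:**
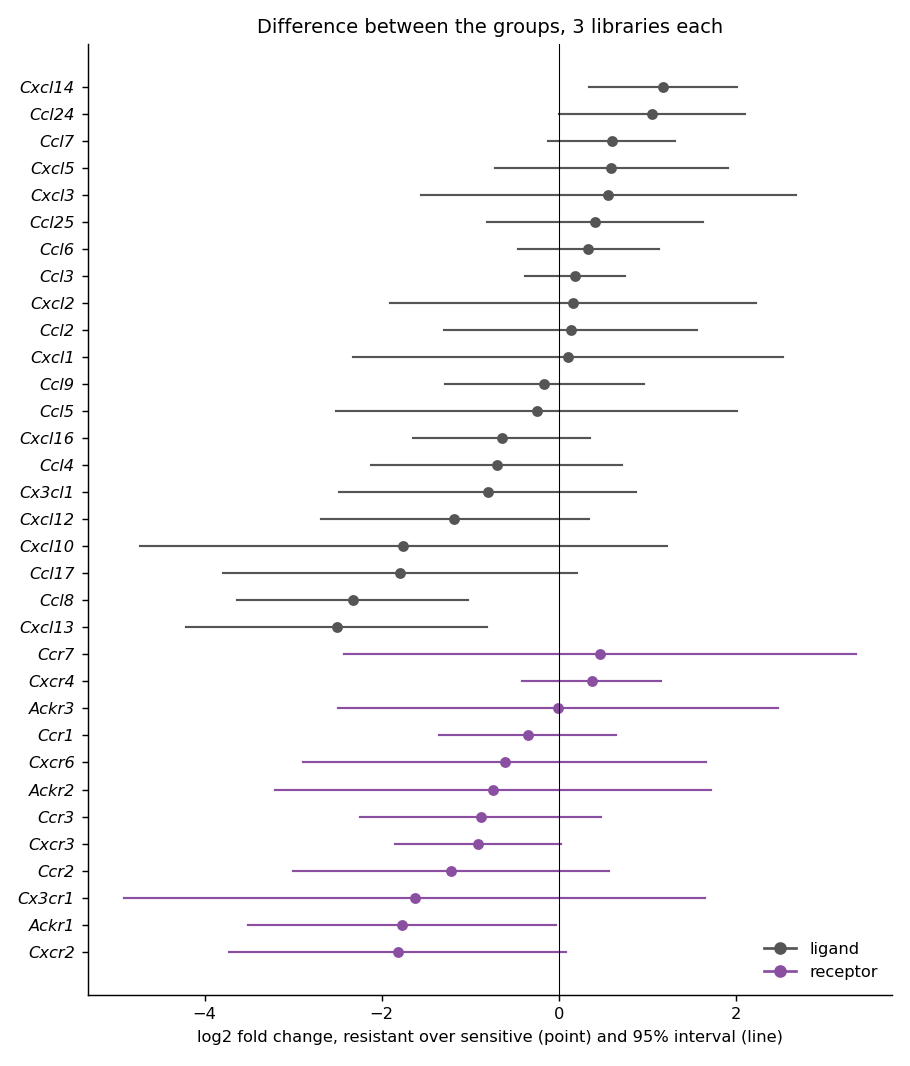
Fitted log2 fold change of tested members, resistant over sensitive, with its 95% interval. For 5 members the interval does not reach 0, and no member passed the adjusted threshold.

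The median log2 fold change was -0.48 over the 34 members and 0.008 over all genes tested. The members' median was -1.09 without resistant replicate 1 and -0.25 without resistant replicate 3. Ligands divided evenly, with 11 positive and 10 negative estimates and a median of 0.11. Receptors did not, with 2 positive and 11 negative estimates and a median of -0.88, where 7619 of all 15474 genes were negative. These counts cover the members that passed the filter alone, the estimates share the same 6 libraries, and none was called after adjustment.

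The 4 tested members that encode ELR CXC chemokines, the neutrophil attractants, are Cxcl5, Cxcl3, Cxcl1 and Cxcl2. They lie in 1 gene cluster on mouse chromosome 5, from 90759360 to 90905938 (GRCm38). They varied more within the groups than between them. Cxcl1 was at 78.9, 13.04 and 112 CPM in the sensitive and at 158, 8.94 and 53.8 CPM in the resistant libraries, a 17.7-fold spread from the highest to the lowest. Cxcl2 was at 59.7, 29.4 and 51.8 CPM and at 128, 9.45 and 20.6 CPM, a 13.5-fold spread with the same highest and lowest libraries. Cxcl3 was at 25.6, 7.01 and 10.7 CPM and at 34.02, 27.8 and 2.25 CPM. Cxcl5 was at 13.2, 6.55 and 6.07 CPM and at 20.7, 13.4 and 4.97 CPM. Replicate 1 of the resistant group was the highest library for all 4, while the lowest was resistant replicate 2 for Cxcl1 and Cxcl2 and resistant replicate 3 for Cxcl3 and Cxcl5. The log2 fold changes were 0.11 ± 1.03 (SE) for Cxcl1, 0.16 ± 0.88 for Cxcl2, 0.56 ± 0.90 for Cxcl3 and 0.60 ± 0.56 for Cxcl5, with 95% intervals that include 0. The direction of Cxcl1 and Cxcl2 turned under other tests (log2 fold changes of -0.22 and -0.61 in limma-voom).

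Promoter sequences are shown for Cxcl1, Cxcl2 and Cxcl3, neighbours in this cluster that were each highest in resistant replicate 1, and for Ccl6 and Ccl9, the most abundant members. Cxcl5, also in the cluster and highest in that library, is not shown. NF-kB is a transcription factor of inflammation for which Cxcl1 and Cxcl2 are textbook targets. The letters GGGNNTTTC were searched on both strands in the RefSeq promoter windows (250 bases before to 50 after each start, GRCm38.p6). They occurred in 4.36% of all 32851 windows and in 12 of the 53 windows of the 46 members that have one. The last 120 bases before the start are printed 5′ to 3′ on the gene's strand, with each match in capitals: Cxcl1 at chr5:90891125-90891244 (plus strand), Cxcl2 at chr5:90903779-90903898 (plus), Cxcl3 at chr5:90785981-90786100 (plus), Ccl6 at chr11:83593088-83593207 (minus) and Ccl9 at chr11:83578637-83578756 (minus).
Cxcl1: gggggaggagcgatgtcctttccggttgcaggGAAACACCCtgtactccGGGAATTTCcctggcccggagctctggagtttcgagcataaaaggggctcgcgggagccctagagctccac
Cxcl2: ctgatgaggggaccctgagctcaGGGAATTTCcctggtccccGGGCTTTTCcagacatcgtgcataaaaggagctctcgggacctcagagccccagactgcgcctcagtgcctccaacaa
Cxcl3: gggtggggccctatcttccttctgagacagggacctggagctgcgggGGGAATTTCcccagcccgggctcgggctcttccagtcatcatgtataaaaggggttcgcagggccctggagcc
Ccl6: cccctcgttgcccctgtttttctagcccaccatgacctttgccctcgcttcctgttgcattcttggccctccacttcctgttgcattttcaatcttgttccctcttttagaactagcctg
Ccl9: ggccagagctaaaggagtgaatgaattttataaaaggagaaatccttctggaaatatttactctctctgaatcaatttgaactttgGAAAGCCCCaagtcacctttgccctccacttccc
Cxcl1 and Cxcl2 each hold 2 matches. The matches begin 88 and 71 bases before the start in Cxcl1, the first on the opposite strand, and 97 and 78 bases before it in Cxcl2. Cxcl3 holds 1 match, 73 bases before the start, and Ccl9 holds 1 on the opposite strand, 34 bases before it. These letters are not in the Ccl6 stretch. No match was recorded for Cxcl5, which may lack a window. A match describes the sequence alone and is not a measured binding site. The TATA box letters TATAAA (gene strand) were in 8.32% of all windows and in 12 of the 53, and the PU.1 letters GAGGAA (either strand) in 28.3% and in 19 of the 53.

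The inflammatory CC ligands Ccl3, Ccl4, Ccl5, Ccl6 and Ccl9 are encoded together on chromosome 11 from 83525778 to 83664683. Of these 5 genes, 0 had an unadjusted p-value under 0.05, and their median log2 fold change was -0.16. In CPM, Ccl6 was at 2826, 2375 and 3212 in the sensitive and at 5109, 2339 and 3163 in the resistant libraries, a log2 fold change of 0.34 ± 0.34 (SE; 95% interval -0.46 to 1.13). Ccl9 was at 1065, 1268 and 699 CPM and at 1584, 617 and 512 CPM, a log2 fold change of -0.16 ± 0.47. For both, replicate 1 of the resistant group was the highest of all libraries. Ccl3 (MIP-1 alpha), a macrophage product that attracts CCR1+ cells, was the steadiest, at 47.3, 43.2 and 28.6 CPM and at 47.6, 42.2 and 45.5 CPM. Ccl4 (MIP-1 beta) was at 13.4, 28.9 and 5.82 CPM and at 14.7, 8.73 and 6.15 CPM. Ccl5 (RANTES), a ligand for T cells and monocytes, was at 3.25, 6.10 and 5.09 CPM and at 10.3, 0.719 and 1.13 CPM, so the resistant group held both its highest and its lowest libraries.

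Monocyte-attracting CC ligands, of which Ccl2 and Ccl7 act mainly through CCR2, are encoded near each other on chromosome 11. There Ccl2, Ccl7 and Ccl8 span 82035571 to 82116799. Ccl8 (MCP-2) had the smallest unadjusted p-value of any member. It was at 1.72, 5.32 and 3.67 CPM in the sensitive libraries (counts of 36, 82 and 75) and at 0.680, 0.822 and 0.615 CPM in the resistant ones (counts of 15, 16 and 12). The resistant libraries lay below all sensitive ones. Counts this low carry a large counting error, so the closeness of the resistant values cannot be read as a steady level. The means were 3.57 ± 1.80 (SD, n = 3) and 0.706 ± 0.106 CPM (SD, n = 3). The log2 fold change was -2.33 ± 0.56 (SE; 95% interval -3.63 to -1.02; unadjusted p = 0.00384, adjusted p = 0.940, edgeR's quasi-likelihood test). Ccl2 (MCP-1), the main CCR2 ligand, was far more abundant and did not follow Ccl8, at 125, 36.2 and 253 CPM in the sensitive and at 165, 124 and 165 CPM in the resistant libraries. Both the highest and the lowest Ccl2 values were in sensitive libraries. Ccl7 (MCP-3) was at 32.6, 20.6 and 31.5 CPM and at 31.6, 57.9 and 39.2 CPM, a log2 fold change of 0.60 ± 0.30 (unadjusted p = 0.0878).

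Homeostatic and tissue ligands held the largest fold change in either direction among ligands, on 2 genes. Cxcl13, the B cell attractant that macrophages and stromal cells of lymphoid tissue make, was at 23.9, 46.0 and 50.5 CPM in the sensitive and at 15.2, 2.57 and 3.33 CPM in the resistant libraries. Replicates 2 and 3 of the resistant group were low, and replicate 1 lay nearer to the sensitive libraries. The log2 fold change was -2.51 ± 0.72 (SE; 95% interval -4.21 to -0.81; unadjusted p = 0.0101, adjusted p = 0.940, edgeR's quasi-likelihood test). Its receptor Cxcr5 was not tested, with counts of 1, 2 and 19 and of 7, 2 and 3. Cxcl14, a chemokine of epithelia and stroma, went the other way, at 12.1, 14.5 and 24.6 CPM in the sensitive and at 37.3, 27.9 and 51.3 CPM in the resistant libraries. Its log2 fold change was 1.185 ± 0.36 (SE; 95% interval 0.34 to 2.02; unadjusted p = 0.0124, adjusted p = 0.940). Markers of stellate cells and fibroblasts summed to 153, 167 and 87.3 CPM and to 89.7, 369 and 121 CPM, and those of epithelium to 121, 271 and 10.8 CPM and to 70.9, 88.9 and 238 CPM. Neither sum separated the groups. The median log2 fold change was 0.59 for the stellate cell and fibroblast list and 0.08 for the epithelial list. The part of these markers in the Cxcl14 value was not tested.

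Cxcl16, which exists as a membrane-bound and a shed ligand of CXCR6, was at 51.9, 140 and 68.2 CPM in the sensitive and at 77.5, 39.5 and 49.2 CPM in the resistant libraries. Cxcl12, the ligand of Cxcr4 and Ackr3, was at 14.4, 9.02 and 2.30 CPM and at 5.12, 3.39 and 2.87 CPM, a log2 fold change of -1.18 ± 0.64 (unadjusted p = 0.109). Ccl25, a ligand for CCR9 in gut and thymus, was at 5.26, 1.88 and 8.32 CPM and at 6.66, 7.14 and 6.82 CPM. Cx3cl1, the endothelial ligand of Cx3cr1, was low in all libraries, between 0.256 and 2.01 CPM. None of these 4 separated the groups. Exons of Cxcl16 and Ccl25 overlap Zmynd15 and Elavl1 in the annotation, and the strand setting of the counting is not stated.

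Among type 2 ligands, Ccl24 (eotaxin-2), an eosinophil attractant made by macrophages, was at 47.3, 137 and 52.6 CPM in the sensitive and at 123, 168 and 201 CPM in the resistant libraries. Replicate 2 of the sensitive group was above replicate 1 of the resistant group, so the groups overlapped. Its log2 fold change was 1.06 ± 0.44 (SE; 95% interval 0.01 to 2.11; unadjusted p = 0.0487, adjusted p = 0.940, edgeR's quasi-likelihood test). Ccr3, its receptor on eosinophils, was at 1.44, 1.69 and 2.69 CPM and at 1.36, 1.28 and 0.513 CPM. Ccl17, a dendritic cell and macrophage ligand of CCR4, was at 0.526, 1.56 and 1.27 CPM and at 0.634, 0.103 and 0.205 CPM, with 2 of its resistant values near the 3 count floor.

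Interferon-inducible CXCR3 ligands were scarce. Cxcl10 (IP-10) had 159 counts in replicate 1 of the sensitive group and 9 and 3 in the others, against 25, 14 and 12 in the resistant libraries. The log2 fold change of -1.75 ± 1.26 became 1.19 without sensitive replicate 1. Cxcl9 (MIG) had counts of 9, 0 and 45 and of 15, 5 and 2, and Cxcl11 of 4, 15 and 1 and of 0, 0 and 0, neither enough to be tested. Cxcr3 itself, a receptor of T and NK cells, was at 3.30, 4.35 and 5.58 CPM in the sensitive and at 2.76, 1.80 and 2.46 CPM in the resistant libraries, without overlap (log2 fold change -0.91 ± 0.40, unadjusted p = 0.0552). The 11 markers of T and NK cells summed to 15.6, 26.7 and 24.3 CPM and to 19.9, 15.7 and 10.4 CPM in the same libraries, with Cd4, which macrophages can also express, as the largest single value in each. Only 2 of the 11 passed the filter (0 with an unadjusted p-value under 0.05), Klrb1c was at 0 throughout, and their part in the Cxcr3 value was not tested.

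Cxcr2, the receptor of ELR CXC chemokines on neutrophils, was at 97.1, 87.4 and 10.1 CPM in the sensitive and at 23.2, 23.8 and 8.05 CPM in the resistant libraries. Replicate 3 was the low library of each group, which made the groups overlap. The log2 fold change was -1.82 ± 0.80 (SE; 95% interval -3.72 to 0.08; unadjusted p = 0.0579, adjusted p = 0.940, edgeR's quasi-likelihood test). The other 10 neutrophil markers, among them S100a8, S100a9 and Ly6g, had negative estimates too. They summed to 5019, 7976 and 646 CPM in the sensitive and to 1991, 1608 and 351 CPM in the resistant libraries. Unlike Cxcr2, Camp and Ltf were higher in resistant replicate 1 (10.7 and 38.5 CPM) than in sensitive replicate 1 (9.81 and 33.0 CPM). The median log2 fold change of the 10 markers was -1.49, and their part in the Cxcr2 value was not tested. Cxcr1, the second ELR CXC receptor, had between 0 and 6 counts per library and was not tested.

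**Figure D4:**
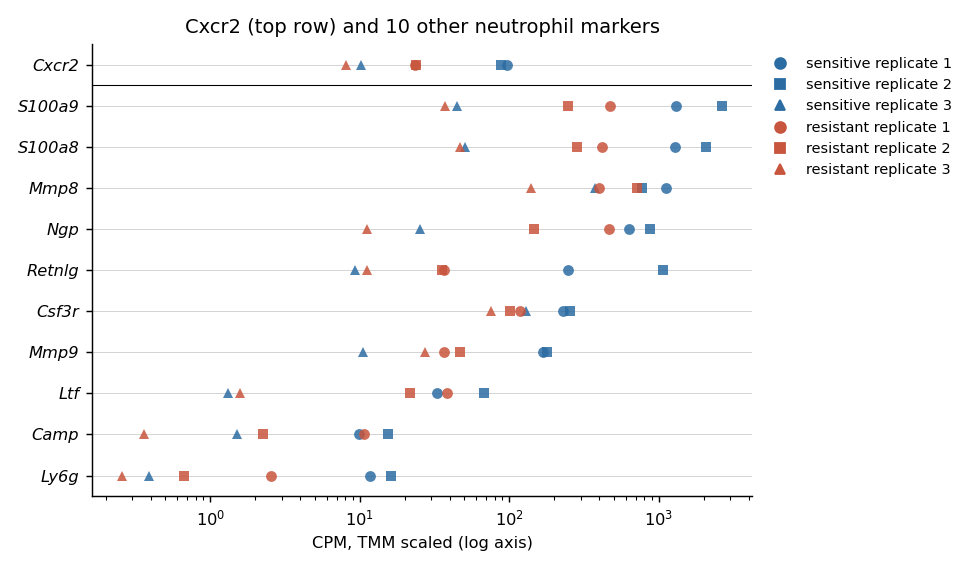
CPM (log axis) of Cxcr2 in the top row and of 10 other neutrophil markers below it, with 1 symbol per library. The triangles of replicate 3 are the lowest of their own group in the Cxcr2 row and in all 10 marker rows, and replicates 1 and 2 of the sensitive group are the highest of all libraries in the Cxcr2 row.

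The remaining CXC and CX3C receptors showed no separation of the groups. Cxcr4 was at 119, 85.7 and 144 CPM in the sensitive and at 97.4, 209 and 146 CPM in the resistant libraries, a log2 fold change of 0.37 ± 0.33 (unadjusted p = 0.297). Cx3cr1, a receptor of monocytes and resident macrophages, had 348 of its counts in replicate 3 of the sensitive group, and 24 and 7 counts in the other sensitive and 84, 38 and 5 in the resistant libraries. Its log2 fold change was -1.63 ± 1.39 in all libraries and 1.31 without that one. Cxcr6, a receptor of T and NK cells, was between 0.103 and 1.45 CPM.

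CC receptors expressed by myeloid cells are encoded side by side on chromosome 9, where Ccr1, Ccr3 and Ccr2 span 123962124 to 124113557. Ccr1 was at 162, 108 and 75.8 CPM in the sensitive and at 68.3, 144 and 58.6 CPM in the resistant libraries. Ccr2, the receptor of inflammatory monocytes, was at 22.6, 15.1 and 8.22 CPM and at 14.5, 2.88 and 2.36 CPM, a log2 fold change of -1.21 ± 0.76 (unadjusted p = 0.153). Replicate 1 of the resistant group lay within the sensitive range for Ccr2, and replicate 3 of that group was the lowest library. The other 5 monocyte markers summed to 5507, 4669 and 2827 CPM and to 2110, 5560 and 3924 CPM, a sum carried by Chil3 and lowest in resistant replicate 1, with a median log2 fold change of -0.20. Within the list, Ly6c2, Plac8 and Vcan were lowest in resistant replicate 3, as Ccr2 was, while Chil3 and F13a1 were lowest in resistant replicate 1. The part of these markers in the Ccr2 values was not tested. Ccr7, the lymph node homing receptor, was between 0 and 1.86 CPM.

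Atypical receptors had 3 tested genes, all with negative estimates. Ackr1 (DARC), which venular endothelium and erythroid cells carry, was at 1.72, 2.01 and 1.18 CPM in the sensitive libraries (counts of 36, 31 and 24) and at 0.951, 0.206 and 0.256 CPM in the resistant ones (counts of 21, 4 and 5). Its log2 fold change was -1.77 ± 0.74 (SE; 95% interval -3.51 to -0.03; unadjusted p = 0.0472, adjusted p = 0.940, edgeR's quasi-likelihood test). Exons of Ackr1 overlap Cadm3 in the annotation. Pan-endothelial markers summed to 355, 264 and 439 CPM and to 351, 50.2 and 345 CPM, lowest in resistant replicate 2, where Ackr1 was lowest too. Cdh5 (log2 fold change -0.001) was the largest of these markers in every library but sensitive replicate 2. There Esam was at 81.1 CPM and Cdh5 at 48.0 CPM. Of the 10 markers, 5 (Kdr, Tek, Erg, Egfl7 and Emcn) had an unadjusted p-value under 0.05 and lower values in the resistant group (background 2.54% of genes). Like Ackr1, these 5 were lower in every resistant library, without overlap (background 4.38%). Each had an adjusted p of 0.940 in edgeR's quasi-likelihood test. The median over the 10 was -1.07. The part of these markers in the Ackr1 value was not tested. Ackr2 (D6), a scavenger of inflammatory CC chemokines, was at 14.4, 10.6 and 9.89 CPM in the sensitive and at 18.5, 0.771 and 1.64 CPM in the resistant libraries, a 24.1-fold spread with its highest and lowest values both in the resistant group. Ackr3, which takes up Cxcl12, was at 4.31, 0.195 and 0.489 CPM and at 0.861, 2.11 and 2.05 CPM, with no stable direction.

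Across the 34 tested members, replicate 1 of the resistant group was the highest library for 11 and the lowest for 0. Replicates 2 and 3 of that group were each the lowest library for 11 members and the highest for 2. In the sensitive group, replicates 1, 2 and 3 were the highest for 7, 5 and 7 members and the lowest for 2, 6 and 4. Leaving out resistant replicate 1 moved the members' count most. For the 11 members where that library was highest, its removal necessarily lowers the resistant mean. The counts without it are therefore not independent support. Without it, 12 of the 36 members tested had an unadjusted p-value under 0.05 against a background of 3.91% of genes, 10 of them lower in the resistant group against 3.05%. Among the 10 were Cxcl13, Ackr2, Ccr2, Ccl5, Ackr1, Cxcl2, Ccl8, Ccl17 and Ccl9, and the smallest adjusted p-value was 0.764, for Cxcl13. The largest of these differences were -3.75 ± 0.47 (log2, SE) for Cxcl13 and -3.26 ± 0.52 for Ackr2. With resistant replicate 2 left out instead, 3 members had an unadjusted p-value under 0.05 (background 1.51%), and with resistant replicate 3 left out 2 did (background 1.03%). Without sensitive replicate 2, the library that stood apart, there were 4 (Ccl8, Cxcl13, Cxcl14 and Ccl24; background 3.96%).

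Over all alternatives fitted, Ccl8 and Cxcl13 had an unadjusted p-value under 0.05 in 15 of 15 and Cxcl14 in 14 of 15, the exception being the fit without resistant replicate 3. Ccl24 had one in 9 of 15 alternatives and in 2 of the 6 that left out 1 library, those without sensitive replicate 2 or resistant replicate 1. Ackr1 had one in 6 of 14 alternatives and in 1 of the 6 that left out 1 library, that without resistant replicate 1. Log2 fold changes over the fits with 1 library left out ran from 0.80 to 1.71 for Ccl24 and from -2.78 to -1.41 for Ackr1. The genes counted here were picked by their unadjusted p-values in the main fit. Every alternative reused the same libraries, so these counts are not independent support. No member passed the adjusted threshold in any alternative.

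**Figure D5:**
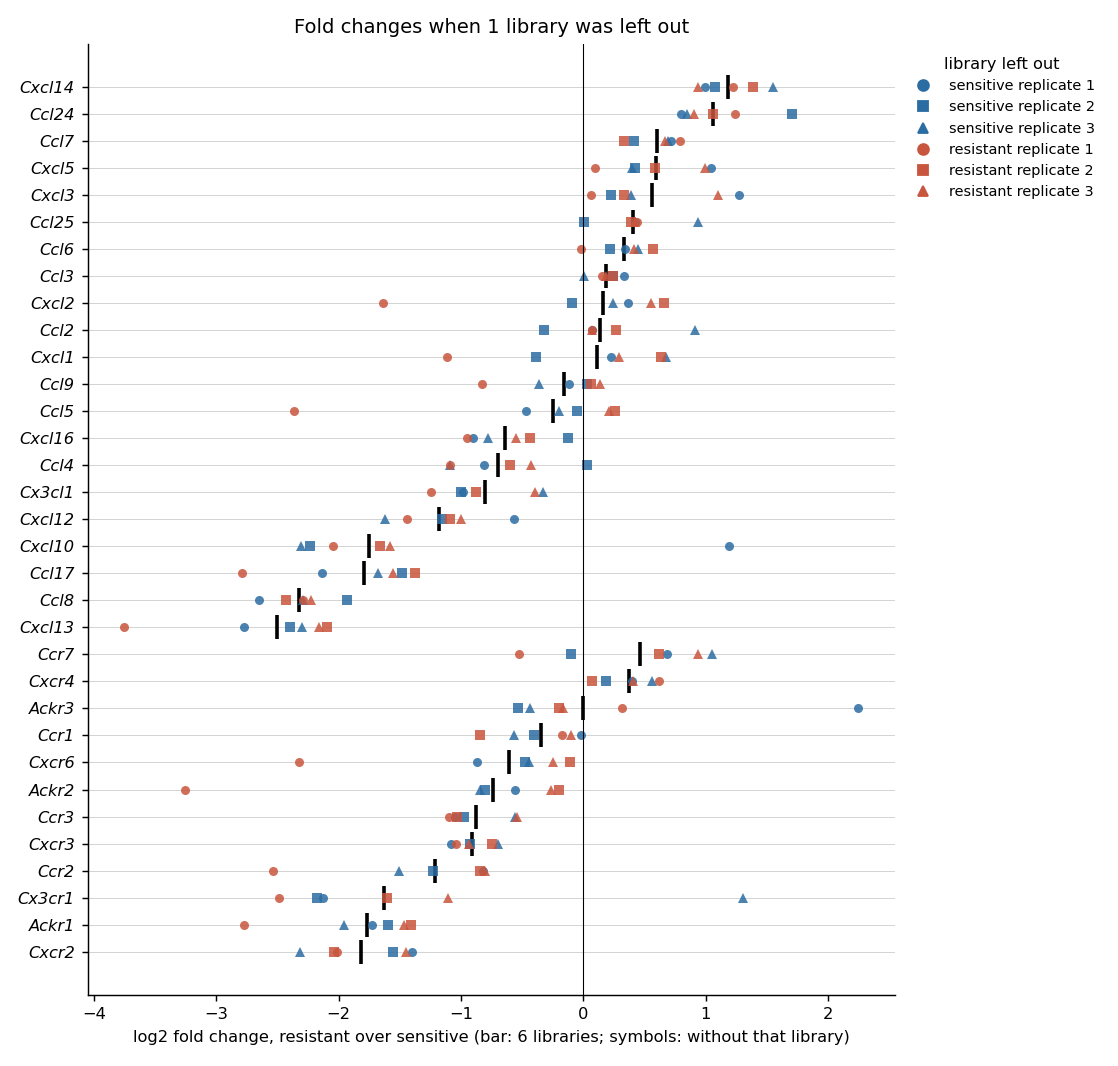
Log2 fold change of tested members, resistant over sensitive, in all 6 libraries (black bar) and with 1 library left out (symbol of that library), ligands above and receptors below. The red circles (without resistant replicate 1) lie farthest to the left for Cxcl13, Ackr2, Ccl17 and Ackr1, whereas all symbols of Cxcl14 and Ccl24 stay above 0 and those of Ccl8 stay below it.

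Of the 27 members not tested, 4 had 0 counts in every library (Ccl1, Ccl19, Ccl21b and Ccl21d), 12 had 1 to 9 counts in all and 11 had 10 or more. Near-identical gene copies such as those of Ccl21 and Ccl27 share reads, so their counts are uncertain. Beyond Cxcl9, Cxcl11, Cxcr5 and Cxcr1, the last group held Ccl28 (counts of 6, 0 and 8 in the sensitive and of 11, 8 and 9 in the resistant libraries), Ccr9 (11, 0 and 7 and 5, 11 and 5), Ccl27a (0, 10 and 11 and 1, 1 and 2) and Ackr4 (2, 0 and 8 and 1, 4 and 7). It also held Ccl12 (6, 0 and 4 and 3, 3 and 0), Ccr10 (2, 0 and 6 and 3, 2 and 0) and Ccl22 (0, 0 and 2 and 9, 1 and 1).

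Genes that act with chemokines were read from a list of 63 further ligands and receptors, signaling genes and regulators of chemokine expression. Of 61 tested, 0 passed 0.05 after adjustment and 5 before it, all 5 lower in the resistant group (background 2.54%), and the median log2 fold change was -0.13. Fgr, a Src family kinase of myeloid cells, was at 115, 109 and 134 CPM in the sensitive and at 77.8, 51.9 and 48.3 CPM in the resistant libraries, without overlap (log2 fold change -1.01 ± 0.24, unadjusted p = 0.00416, adjusted p = 0.940, edgeR's quasi-likelihood test). Rgs2, which shortens G protein signals, was at 161, 195 and 168 CPM and at 127, 56.1 and 103 CPM (log2 fold change -0.87 ± 0.31). Ccrl2 was at 47.4, 53.1 and 45.8 CPM and at 42.3, 24.5 and 26.8 CPM (-0.64 ± 0.26 on the same scale). Tnf, an inducer of many chemokines, was at 9.76, 12.5 and 5.24 CPM and at 5.98, 3.29 and 4.05 CPM, with overlap (-1.04 ± 0.43).

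By mean level, Cd74 (694 FPKM), Mif (260 FPKM) and Pf4 (216 FPKM) led the other ligands and receptors, ahead of Cmklr1 (55.2 FPKM), Ccrl2 (15.3 FPKM) and Ppbp (2.76 FPKM). Cd74, the MHC class II invariant chain and a receptor of Mif, was at 869, 2283 and 2159 CPM in the sensitive and at 1550, 133 and 142 CPM in the resistant libraries, with replicates 2 and 3 of the resistant group low as for Cxcl13 (log2 fold change -1.54 ± 0.99, unadjusted p = 0.164). Signaling genes of high mean level included Gnai2 (184 FPKM), Cdc42, Arrb2, Gnb2 and Rac2 (107 FPKM). The regulators of highest mean level were Cebpb (350 FPKM), Nfkbia (208 FPKM), Irf8, Zfp36, Rela and Zfp36l1 (27.8 FPKM).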

How the data were processed

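RNA-seq libraries labelled as mouse LSECs (3 sensitive, 3 resistant, cultured for 24 h) were grouped and numbered from the sample titles. Per the submitters' processing notes the reads were aligned with HISAT2 2.0.5 and counted per gene with featureCounts 1.5.0-p3, and the authors deposited whole-number counts with no normalization. The FPKM values deposited by the authors divide these counts by library total and gene length. A further table of the authors' own DESeq2 1.16.1 comparison (group means, fold changes, p-values) was not used. The notes name build mm9, but lengths implied by FPKM lie within 5% of the GENCODE M21 (GRCm38) exon unions for 99% of genes, so GRCm38 coordinates are given. Promoters are RefSeq's, and 46 of 61 members had one.

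Counts were filtered with filterByExpr, scaled by TMM and tested with edgeR 4.0.16 (R 4.3.3; quasi-likelihood, robust, no covariate, two-sided) over all genes with Benjamini-Hochberg adjustment at 0.05. The biological coefficient of variation was 42.2%. The scripts were tested on simulated data. CPM in the text is TMM-scaled. Alternatives used DESeq2 1.42.0, limma 3.58.1, other scalings and filters, log2(FPKM + 1) and log2(FPKM + 0.1), a replicate block and each library left out. Figures were drawn with matplotlib 3.10.9.

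Tested members are named, and untested ones with 10 or more counts. Of the pathway genes, those with an unadjusted p-value under 0.05 and up to 6 per list with the highest mean FPKM are named. A few genes that these rules select are counted but not reported by name here. The members and lists were chosen with earlier results of these data known. Counts carry no molecular identifiers, so floors cover counting error alone.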

Additional observations from a re-analysis of the deposited data

How the results depend on the processing

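Of 502 member estimates under the alternatives, 468 kept their direction and their side of the adjusted threshold and 34 turned, in 11 members when 1 library was left out and in 4 of them (Cxcl1, Cxcl2, Cx3cr1 and Ackr3) also under another setting. Deviations from the group means correlated at -0.00093, 0.0343 and 0.194 between same-numbered libraries. Differently numbered libraries were not compared, so these values cannot decide whether the replicate numbers pair the libraries. With the replicate block, 7 members had an unadjusted p-value under 0.05, and 3 pathway genes, against a background of 3.02% of genes. The smallest adjusted p-value of a member in that fit was 0.9375 (edgeR's quasi-likelihood test). Cxcl1 turned to -0.224 in limma-voom, -0.113 and -0.134 on log2(FPKM + 1) and log2(FPKM + 0.1) and -0.209 with the replicate block, and Cxcl2 to -0.611, -0.48, -0.549 and -0.658. Cx3cr1 turned to 0.139 with the block. Ackr3 turned to 0.005 with DESeq2 size factors, 0.023 without a filter, 0.011 in DESeq2's test, 0.809 in limma-voom, 0.077 and 0.612 on the FPKM scales and 1.111 with the block. The cause of these turns was not tested.

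With 1 library left out, log2 fold changes ran from -0.019 to 0.569 for Ccl6, -0.829 to 0.136 for Ccl9, -0.325 to 0.916 for Ccl2, -1.113 to 0.676 for Cxcl1, -1.638 to 0.664 for Cxcl2, -1.09 to 0.03 for Ccl4, -2.362 to 0.26 for Ccl5, -2.487 to 1.307 for Cx3cr1, -2.309 to 1.188 for Cxcl10, -0.534 to 2.25 for Ackr3 and -0.526 to 1.056 for Ccr7. Members with an unadjusted p-value under 0.05 then numbered 2 to 12, pathway genes 1 to 10 and all genes 167 to 1056, and the members' median log2 fold change ran from -1.094 (without resistant replicate 1) to -0.246. Pathway genes numbered 2 with library totals alone (background 2.46% of genes), 3 without a filter (5.98%) and 3 on both FPKM scales (3.06% and 2.86%). Over all genes, 2036 had an unadjusted p-value under 0.05 without a filter and 732 in DESeq2's test, and 2 and 24 an adjusted one. In DESeq2's test the smallest adjusted p-value of a member was 0.0736, for Ccl8 and Cxcl13, against 0.619 to 0.9999 in the other fits. Depth limits the members with few counts, such as Ccl8, Ackr1, Ccl17 and Cxcl10.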
